A study of Mus musculus with 4 samples.

Results

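Peaks in SINEs (short interspersed elements) were taken from the authors' annotated table of ATAC-seq peaks, as those whose annotation named a SINE and that lay more than 1000 bp from the nearest transcription start site. There were 426 such peaks among 15221 annotated peaks and 85925 consensus peaks. They comprised 83 Alu, 94 B2, 98 B4 and 133 MIR peaks, and 18 peaks of smaller families (10 ID, 4 tRNA-RTE, 3 5S-Deu-L2 and 1 tRNA). The repeat name was that given by HOMER, which annotates a peak at its centre, so an element need not cover the whole peak. SINE peaks made up 3.13% of the annotated peaks beyond 1000 bp, against 3.95% for LINE and 7.44% for LTR elements. The distance rule split neighbouring values: the nearest members lay 1006 bp from the Kxd1 start site (log2 fold 0.41 in the authors' deposited table) and 1081 bp from that of Prr5l (0.59). The nearest SINE peaks left out lay 921 bp from Gm34240 (-0.32) and 854 bp from Synj2 (0.29), and 7 SINE peaks in all were left out by distance.

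SINEs are non-autonomous retrotransposons that were copied into the genome from small RNA genes and that carry internal RNA polymerase III promoters. In the mouse, the Alu family holds the B1 and proto-B1 (PB1) elements derived from 7SL RNA, the B2 family holds the tRNA-derived B2 and B3 elements, and the B4 family joins tRNA-derived and B1-like parts. The MIR elements are older and are shared across mammals. Most copies are kept in closed, methylated chromatin, and some copies, B2 and MIR among them, are known to carry binding sites for transcription factors or to act as enhancers or boundaries.

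The assay was ATAC-seq, which tags open chromatin with a transposase that carries sequencing adapters. It was run on cultured stem/progenitor cells of the periosteum, taken at the angle of the mandible from mice 8 weeks old. There were 2 libraries of Ctsk-iCre;Plagl1fl/fl cells (the knockout), in which Cre is driven by the cathepsin K gene, and 2 libraries of Plagl1fl/fl cells without Cre (the control). The deleted gene, Plagl1, codes for a transcription factor with zinc fingers. No annotated peak was assigned to it, so the deletion was not checked here. Both groups had the Plagl1fl/fl genotype, and all cells spent 3 days under osteogenic induction with ascorbic acid (50 µg/ml), β-glycerophosphate (5 mM) and dexamethasone (1e-07 M). Because only the knockout carried Cre, effects of Cre and of the deletion cannot be told apart. The tables hold 1 fold, 1 mean signal, 1 p-value and 1 FDR per peak over all 4 libraries, so values and depths per library are not analysed here, and whether both libraries of a genotype came from different animals is not given in the labels. Peaks with a positive fold are called gained, which takes the knockout as the numerator. The authors' labels gain and loss follow its sign in every annotated peak but do not name the genotype that gained, and with the ratio turned every gain below would be a loss.

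Annotation was limited to peaks that had p under 0.05 and changed by 0.2 or more on the log2 scale in either direction, so SINE peaks short of these values could not be counted, and the folds given below are those of peaks already chosen by their fold and p. A peak was called at an FDR under 0.05 in the authors' edgeR test, adjusted over all consensus peaks. Of all consensus peaks 5.62% were called (3.14% gained, 2.48% lost), and of the annotated peaks beyond 1000 bp 30.1% were called (18.4% gained, 11.7% lost). The standard error (SE) of each fold was implied by the deposited F statistic and followed signal almost alone (slope of log2 SE on log2 CPM -0.52, r squared 0.997 across 81527 peaks). Spread between libraries of 1 genotype is not seen in these values. Since the labelled cell type is a bulk culture, a change in the share of 1 cell type and a change of accessibility within cells cannot be told apart. Peaks near leukocyte and macrophage genes moved in the same comparison: of 29 annotated peaks at 14 of 18 listed genes, 18 were gained and 1 was lost. None of the 426 SINE peaks had one of these genes as its nearest. SINE peaks made up only 2.80% of all annotated peaks, so little can be read from their absence among 29. Leukocyte genes outside the list did have called SINE peaks, in both directions. The Adgre5 peak, given below, was gained. The peak nearest to the macrophage gene Siglec1, named after its value was seen, was lost (log2 fold -0.78, FDR 0.0184 in the authors' edgeR test). The part of such cells in the results below was not tested. The periosteal and skeletal progenitor list had 1 gained and 8 lost among 35 annotated peaks. The identity of the cells could not be checked further, because peaks short of the annotation rule carry no gene.

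The comparison asked how SINE peaks moved between knockout and control cells. SINE peaks were more often gained than lost: at an FDR under 0.05 in the authors' edgeR test, 92 of the 426 peaks were gained and 40 were lost. The share called was 31.0%, close to the 30.1% of all annotated peaks beyond 1000 bp. Gained peaks made up 69.7% of called SINE peaks (exact Clopper-Pearson 95% interval 61.1 to 77.4%, which covers counting error only, as do all intervals below). For the other annotated peaks beyond 1000 bp the share was 60.8% (59.3 to 62.4%), and for peaks in no repeat it was 58.9% (57.2 to 60.5%). The higher share of SINE peaks was seen only in peaks wider than 500 bp, at 67.1% against 49.3% of the other annotated peaks beyond 1000 bp. At widths up to 500 bp it was 73.2% (59.7 to 84.2%) against 76.2%. LINE peaks (75.5%, 67.9 to 82.0%) and LTR peaks (77.6%, 72.4 to 82.2%) had higher gained shares than SINE peaks. Peaks in DNA transposons had a lower one (50%, 34.6 to 65.4%), with 22 gained and 22 lost. The median log2 fold in the authors' deposited table was 0.57 for gained and -0.51 for lost SINE peaks. For the other annotated peaks beyond 1000 bp these medians were 0.58 and -0.43. With an assumed coefficient of variation of 0.05 between libraries of a genotype, 30 SINE peaks were gained and 15 were lost, and 45 of the 132 calls were kept. These shares describe peaks of the same 4 libraries, and no test of the difference between classes was made.

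In each of the 4 families more peaks were gained than lost. Gained peaks numbered 20 of 27 called Alu peaks (74.1%, interval 53.7 to 88.9%), 15 of 22 B2 peaks (68.2%, 45.1 to 86.1%), 26 of 35 B4 peaks (74.3%, 56.7 to 87.5%) and 30 of 42 MIR peaks (71.4%, 55.4 to 84.3%). The intervals overlap throughout. For B2 the order did not hold at an FDR under 0.01, where the gained share was 40% of 5 called peaks, or with the coefficient of variation, where it was 42.9% of 7. The share of members called was lowest for B2, at 23.4% (15.3 to 33.3%), and was 32.5% for Alu, 35.7% for B4 and 31.6% for MIR, against 30.1% of annotated peaks beyond 1000 bp. B2 peaks also had the lowest median signal of the 4 families, 4.86 CPM, against 7.99 CPM for Alu, 6.23 CPM for B4 and 7.78 CPM for MIR. The smaller families ran the other way, with 1 gained and 5 lost of 18 peaks, a count that allows a gained share among called peaks anywhere from 0.421 to 64.1%.

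**Figure D1:**
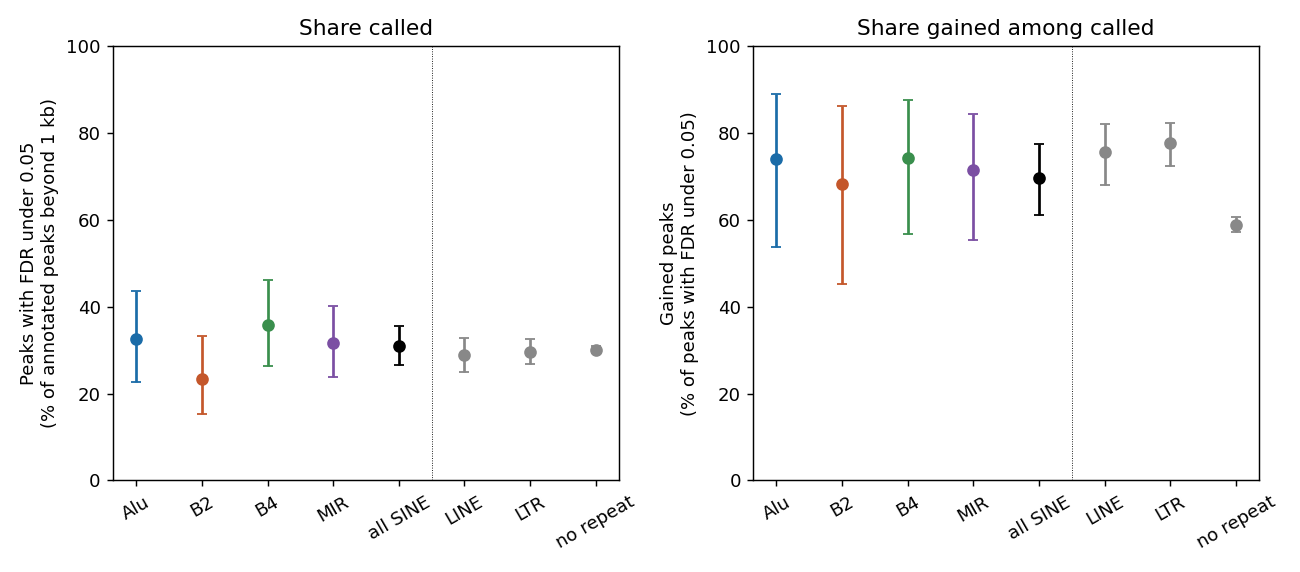
Share of peaks with an FDR under 0.05 (left) and share of gained peaks among these (right) for the 4 SINE families, all SINE peaks, and LINE, LTR and non-repeat peaks beyond 1000 bp, each in percent with the exact 95% interval. Points of the 4 families lie between 68.2 and 74.3% on the right, with overlapping intervals, and the non-repeat peaks lie at 58.9%.

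Large folds belonged to weak peaks, whose larger SE meant that a larger fold was needed to be annotated. SINE peaks ran from 1.06 to 65.7 CPM, with a median of 6.27 CPM, against 6.74 CPM for the other annotated peaks beyond 1000 bp. All 14 SINE peaks that changed by 1 or more on the log2 scale lay in the lowest of 3 signal classes of equal size (up to 4.55 CPM), and 11 of them were called (8 gained, 3 lost). The gained share of called SINE peaks was 71.9% in the lowest class (23 of 32), 75% in the middle class (27 of 36) and 65.6% in the highest class above 10.0 CPM (42 of 64, interval 52.7 to 77.1%). In the other annotated peaks beyond 1000 bp the gained share was 83.7% in the lowest, 67.8% in the middle and 47.8% in the highest class (45.6 to 50.1%). SINE peaks had the higher gained share in the highest class, where the intervals do not overlap, while in the lowest class their interval (53.3 to 86.3%) covers the share of the other peaks. In the highest class LINE peaks (64.5%, 40 of 62) and LTR peaks (59.6%, 62 of 104) were also above the non-repeat peaks (46.4%). Peaks in DNA transposons (47.1%, 8 of 17) were close to the non-repeat peaks there. The median fold of all consensus peaks itself moved with signal, from a log2 value of 0.12 in the weakest 10% to -0.06 in the strongest 10%. With this trend subtracted, 94 SINE peaks were gained and 34 were lost, and 109 of the 132 called peaks were still called.

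**Figure D2:**
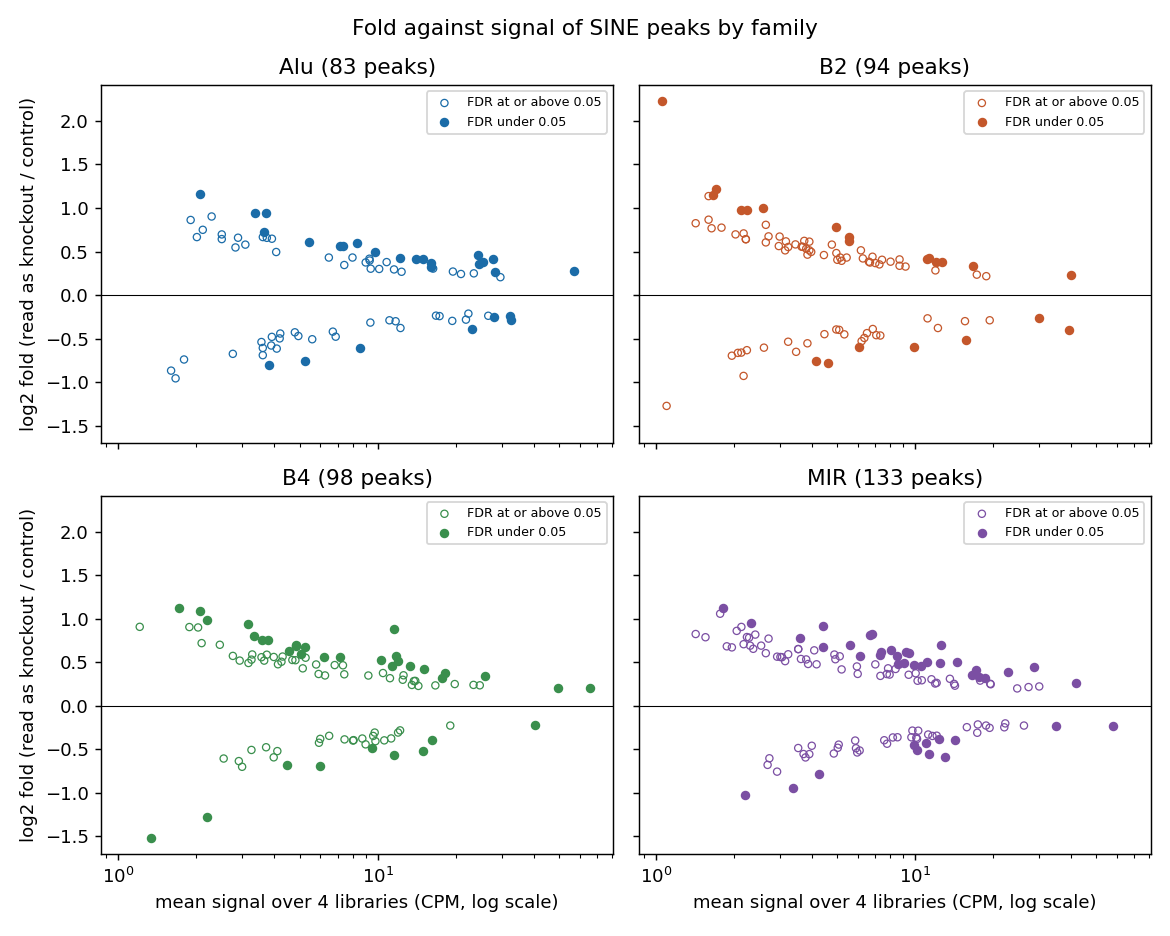
Log2 fold (read as knockout over control) against mean signal in CPM (log axis) for each SINE peak of the Alu, B2, B4 and MIR families; filled points have an FDR under 0.05. Points above 0 outnumber those below in every family. No peak lies close to 0 because annotation required p under 0.05 and a change of 0.2 or more on this scale.

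**Figure D3:**
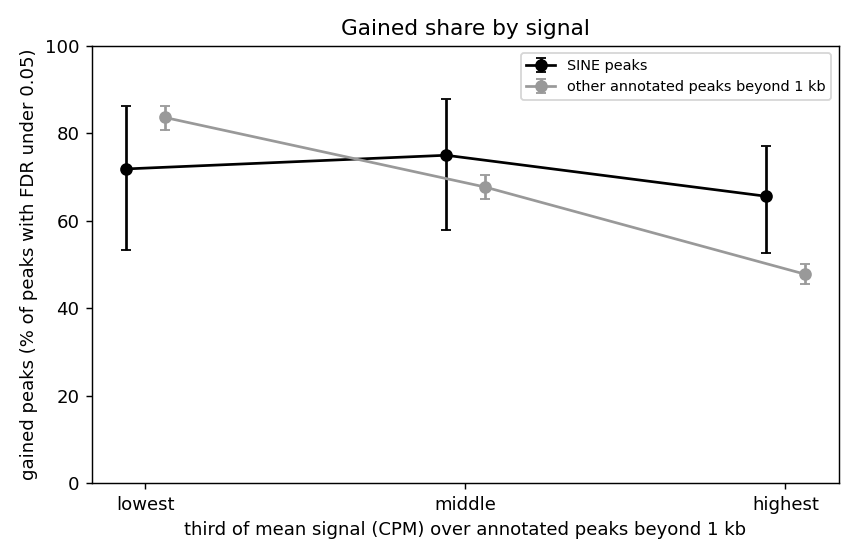
Gained peaks in percent of called peaks with exact 95% intervals, in 3 classes of mean signal, for SINE peaks and for the other annotated peaks beyond 1000 bp. The other peaks fall to 47.8% in the highest class, where the SINE peaks stand at 65.6%.

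SINE peaks had a shorter median distance to genes than other distal peaks. Their median distance to the nearest start site was 16259 bp, against 26995 bp for the other annotated peaks beyond 1000 bp, 25331 bp for LINE and 24237.5 bp for LTR peaks. Alu peaks were the nearest (11593 bp), followed by B2 (14698.5 bp), B4 (18175.5 bp) and MIR peaks (24046 bp). Within 10 kb of a start site lay 151 of the 426 SINE peaks (35.4%), against 23.3% of the other annotated peaks. In introns lay 226 SINE peaks, 97 of them in intron 1 of the annotated transcript, and the other 200 were intergenic. In 63 of the 226 intronic peaks the gene that hosts the intron was not the gene with the nearest start site. Direction varied with distance: 38 peaks were gained and 14 lost within 10 kb, and 44 were gained and 14 lost between 10 and 50 kb. Beyond 50 kb, 10 were gained and 12 were lost (gained share 45.5%, interval 24.4 to 67.8%). The other annotated peaks also had their lowest gained share beyond 50 kb, with 67.4% within 10 kb, 64.3% between 10 and 50 kb and 49.9% beyond 50 kb. Beyond 50 kb, gained and lost numbered 0 and 1 for Alu, 2 and 1 for B2, 1 and 4 for B4 and 6 and 5 for MIR. The 426 peaks were spread over 414 nearest genes and over every autosome and the X chromosome, with 6 peaks on X.

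Within families, counts of gained and lost peaks varied between repeat names, with few called peaks for each. There were 34 repeat names, and 10 of them had at least 20 members, 302 peaks in all. Over all 426 SINE peaks 31.0% were called and 69.7% of the called peaks were gained. The interval of the gained share covers this 69.7% for each of the 10 names, so none is set apart from SINE peaks as a whole. In the MIR family, 14 of the 15 called MIRb peaks were gained (93.3%, interval 68.1 to 99.8%), while the element named MIR had 6 gained and 8 lost peaks (42.9%, 17.7 to 71.1%) and MIR3 had 3 and 3. The intervals of MIRb and MIR overlap narrowly. The median signal was 6.92 CPM over the 44 MIRb peaks and 8.20 CPM over the 41 MIR peaks. In the B4 family, B4 had 7 gained and 1 lost, B4A 6 and 2, and ID_B1 3 and 5. Called or not, 23 of the 34 ID_B1 peaks had a positive fold (67.6%), against 63.8% of all SINE peaks. In the B2 family, B3 had 8 gained and 3 lost of 42 members, B2_Mm2 5 and 2 of 23, and B3A 1 and 2 of 27. Of the names just under 20 members, mentioned after their values were seen, RSINE1 of the B4 family had 10 gained and 1 lost of 19 and MIRc of the MIR family had 5 and 0 of 17. The much smaller MIR1_Amn, also of the MIR family, had 2 and 0 of 6. The other names with 6 members ran the other way, with 1 gained and 3 lost for ID4_v (ID family) and 0 and 1 for the name PB1 itself (Alu family). In the Alu family the largest name was PB1D10, with 8 gained and 2 lost of 21 members at a median of 11.1 CPM. Grouped by name, B1 elements had 12 gained and 2 lost of 40 peaks, and PB1 elements 8 and 5 of 43. These are counts of few peaks each, and the difference between names was not tested.

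**Figure D4:**
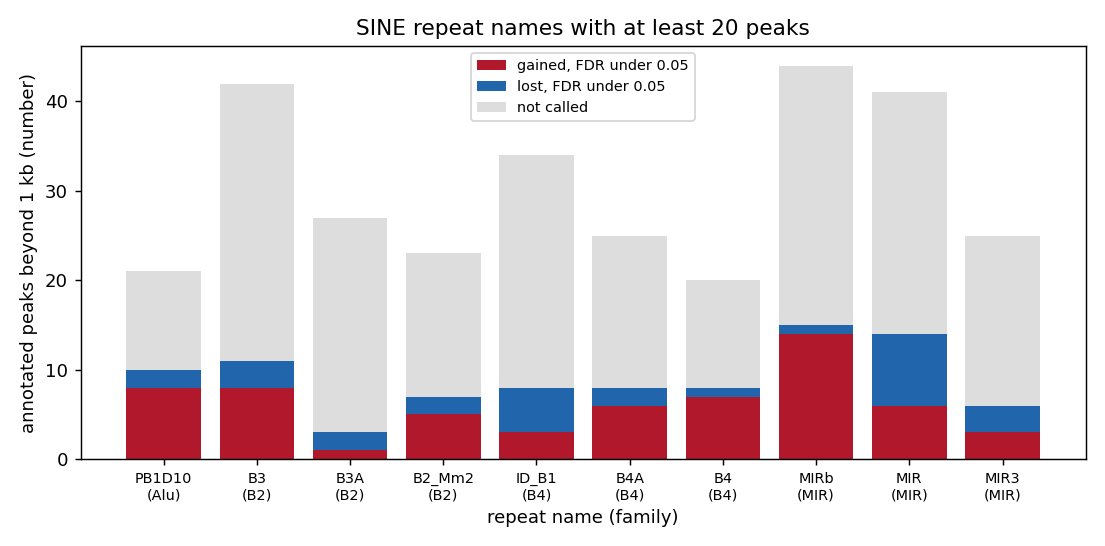
Number of annotated SINE peaks beyond 1000 bp for each repeat name with at least 20 members, split into gained, lost and not called peaks. MIRb has 14 gained and 1 lost, whereas MIR has 6 gained and 8 lost and ID_B1 has 3 gained and 5 lost.

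The 4 gained Alu peaks with the smallest FDR were strong, at 24.4 to 56.9 CPM. The peak on a PB1D10 element 3295 bp upstream of Ubash3b, a phosphatase gene of receptor signalling, lay at chromosome 9, 41072216 to 41073090 (mm39). It had a log2 fold of 0.46 (authors' deposited table, SE 0.0879, FDR 7.66e-05) at 24.4 CPM. All 5 other annotated peaks assigned to Ubash3b had positive folds, and 1 of them was called. A second PB1D10 peak (chromosome 14, 47599000 to 47599715), 11960 bp upstream of the galectin-3 gene Lgals3, had a log2 fold of 0.42 (authors' deposited table, SE 0.0822, FDR 0.000151). Another PB1D10 peak, 7166 bp upstream of Adgre5, which encodes the leukocyte adhesion receptor CD97, had 0.38 (authors' deposited table, SE 0.0859, FDR 0.00133). Of the 2 other annotated Adgre5 peaks, 1 was lost (-0.57) and 1 was positive (0.54) and not called. The peak on a B1_Mm element in intron 1 of 17 of Ralgds, an exchange factor gene for Ral GTPases, had 0.28 (authors' deposited table, SE 0.0584, FDR 0.000563) at 56.9 CPM. None of these 4 gains exceeded 1.38-fold. With an assumed coefficient of variation of 0.05 between libraries the Ralgds peak was no longer called (adjusted p 0.0945).

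The lost Alu peaks named by the same rule included intron 3 of 16 of the forkhead factor gene Foxp4 (chromosome 17, 48192194 to 48192865), with a log2 fold of -0.39 (authors' deposited table, SE 0.0925, FDR 0.00235). A B1F2 peak assigned to Lpp, a focal adhesion gene, 145829 bp upstream of its start site, had -0.75 (authors' deposited table, SE 0.199, FDR 0.00895). All 8 other annotated Lpp peaks had positive folds, from 0.32 to 0.71, and 2 of them were gained. A PB1D9 peak in intron 1 of 4 of C330018D20Rik had -0.61 (authors' deposited table, SE 0.155, FDR 0.00627), and a PB1D10 peak 7679 bp upstream of Mcur1, a gene of mitochondrial calcium uptake, had -0.29 (SE 0.0776, FDR 0.0111). Once the signal trend was subtracted, the Mcur1 peak was no longer called (adjusted p 0.0701), and neither was it with the coefficient of variation (adjusted p 0.139). Both other annotated Mcur1 peaks were positive (0.56 and 0.60) and not called.

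The B2 peaks with the smallest FDR were lost peaks at Ube2v2 and Pgd, followed by the gain nearest to Irak1bp1. A B3 peak 299646 bp from the start site of Ube2v2, a ubiquitin-conjugating enzyme variant gene, lay at chromosome 16, 15112032 to 15113441, with a log2 fold of -0.40 (authors' deposited table, SE 0.0717, FDR 2.67e-05) at 39.3 CPM. The 3 other annotated peaks assigned to Ube2v2 were all negative and 2 were lost. A B3 peak 6131 bp upstream of Pgd, which encodes a dehydrogenase of the pentose phosphate pathway, had -0.52 (authors' deposited table, SE 0.113, FDR 0.000874). The B3A peak upstream of the kinase gene Snrk had -0.59 (authors' deposited table, SE 0.144, FDR 0.00367), and the B3 peak 1900 bp upstream of the proteasome subunit gene Psmb4 had -0.78 (SE 0.214, FDR 0.0123). The 4 gained B2 peaks with the smallest FDR were weak, at 1.06 to 5.57 CPM. The largest fold of any SINE peak was a B3 peak in intron 29 of 39 of Phip, nearest to Irak1bp1, with a log2 fold of 2.23 (authors' deposited table, SE 0.533, FDR 0.00301). At 1.06 CPM it was also the SINE peak with the lowest signal, and both other annotated peaks assigned to Irak1bp1 were negative (-0.45 and -0.22) and not called. A B3 peak in intron 1 of 15 of Nrp2, a semaphorin and VEGF receptor gene, had 0.78 (authors' deposited table, SE 0.196, FDR 0.00504) at 4.95 CPM, and 9 of the 10 other annotated Nrp2 peaks were positive, 5 of them gained. The B2_Mm2 peak 15617 bp upstream of the haem-binding protein gene Hebp2 had 1.00 (authors' deposited table, SE 0.284, FDR 0.0164), and the B3A peak in intron 3 of 13 of Casc3, nearest to Gm12359, had 0.66 (SE 0.184, FDR 0.0143). With the coefficient of variation the Casc3 peak was not called (adjusted p 0.0513).

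Among B4 peaks, the smallest FDR of all SINE peaks was on a B4A element in intron 2 of 13 of Cacnb4, a subunit gene of voltage-gated calcium channels (chromosome 2, 52402853 to 52403587). Its log2 fold was 0.88 (authors' deposited table, 1.84-fold, SE 0.128, FDR 4.26e-08) at 11.6 CPM, and with an assumed coefficient of variation of 0.05 its adjusted p was 2.21e-05. This was also the largest gain among SINE peaks above the median signal of all consensus peaks (5.51 CPM). The single other annotated Cacnb4 peak, with a log2 fold of 0.40, was not called. A B4 peak 2193 bp upstream of Hhipl1 had 0.57 (authors' deposited table, SE 0.127, FDR 0.00109), and a B4A peak in intron 7 of 8 of the autophagy gene Vmp1, nearest to Gm11478, had 0.52 (SE 0.126, FDR 0.00367). The RSINE1 peak in intron 9 of 14 of the lipid kinase gene Pip5k1a, nearest to Psmd4, had 0.35 (authors' deposited table, SE 0.0852, FDR 0.00402), and it was not called with the coefficient of variation (adjusted p 0.0756). On the other side, a lost ID_B1 peak 52201 bp upstream of Smad3, which encodes a transducer of TGF-beta signals, had -0.51 (authors' deposited table, SE 0.116, FDR 0.00139) and lay at chromosome 9, 63717123 to 63717832. Of the 5 other annotated Smad3 peaks, 3 were lost and 1 was gained. The lost B4A peak 56575 bp from the start site of the matrix protease gene Adamts1 had -0.69 (authors' deposited table, SE 0.186, FDR 0.0109) and lay at chromosome 16, 85543305 to 85543548. It was the largest called loss among SINE peaks above the median signal. The 3 other annotated Adamts1 peaks were negative, 2 of them lost. The other lost B4 peaks were an ID_B1 peak in intron 3 of 4 of the CDC42 effector gene Cdc42se1 at -0.56 (authors' deposited table, SE 0.132) and a B4 peak in intron 13 of 21 of the proprotein convertase gene Pcsk6, nearest to Snrpa1, at -1.27 (SE 0.342).

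Among MIR peaks, the smallest FDR belonged to a MIRc peak in intron 5 of 31 of Plxna2, a semaphorin receptor gene, 75391 bp upstream of Mir3962, its nearest start site (chromosome 1, 194428404 to 194429432). It had a log2 fold of 0.70 (authors' deposited table, SE 0.122, FDR 1.22e-05) at 12.6 CPM. The MIR1_Amn peak in intron 1 of 13 of Gas7, a growth arrest gene, had 0.44 (authors' deposited table, SE 0.0812, FDR 4.00e-05), and 12 of the 13 other annotated Gas7 peaks were positive, with 2 gained and 1 lost. The MIRb peak in intron 4 of 11 of Jade2, a gene of histone acetyltransferase complexes, had 0.83 (authors' deposited table, SE 0.167, FDR 0.000254), and the MIRb peak 3314 bp upstream of Gm32249 had 0.81 (SE 0.169, FDR 0.000377). The lost MIR peak with the smallest FDR lay 55138 bp upstream of Igfbp5, an IGF binding protein gene, at -0.59 (authors' deposited table, SE 0.125, FDR 0.000561). Of the 2 other annotated Igfbp5 peaks, 1 was positive and 1 negative, and neither was called. A lost MIR3 peak 88522 bp upstream of the Notch ligand gene Jag1 had -0.23 (authors' deposited table, SE 0.0588, FDR 0.00769) at 57.8 CPM, and with the signal trend subtracted it was no longer called (adjusted p 0.0722), nor was it with the coefficient of variation (adjusted p 0.20). A MIR3 peak assigned to Gm31254 had -0.55 (authors' deposited table, SE 0.134, FDR 0.00364), and a MIR peak in intron 4 of 10 of the transporter gene Slc36a3, nearest to Slc36a3os, had -0.95 (SE 0.259, FDR 0.0118). The single other annotated Slc36a3os peak, at its promoter, was gained, at 1.06 on the log2 scale.

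**Figure D5:**
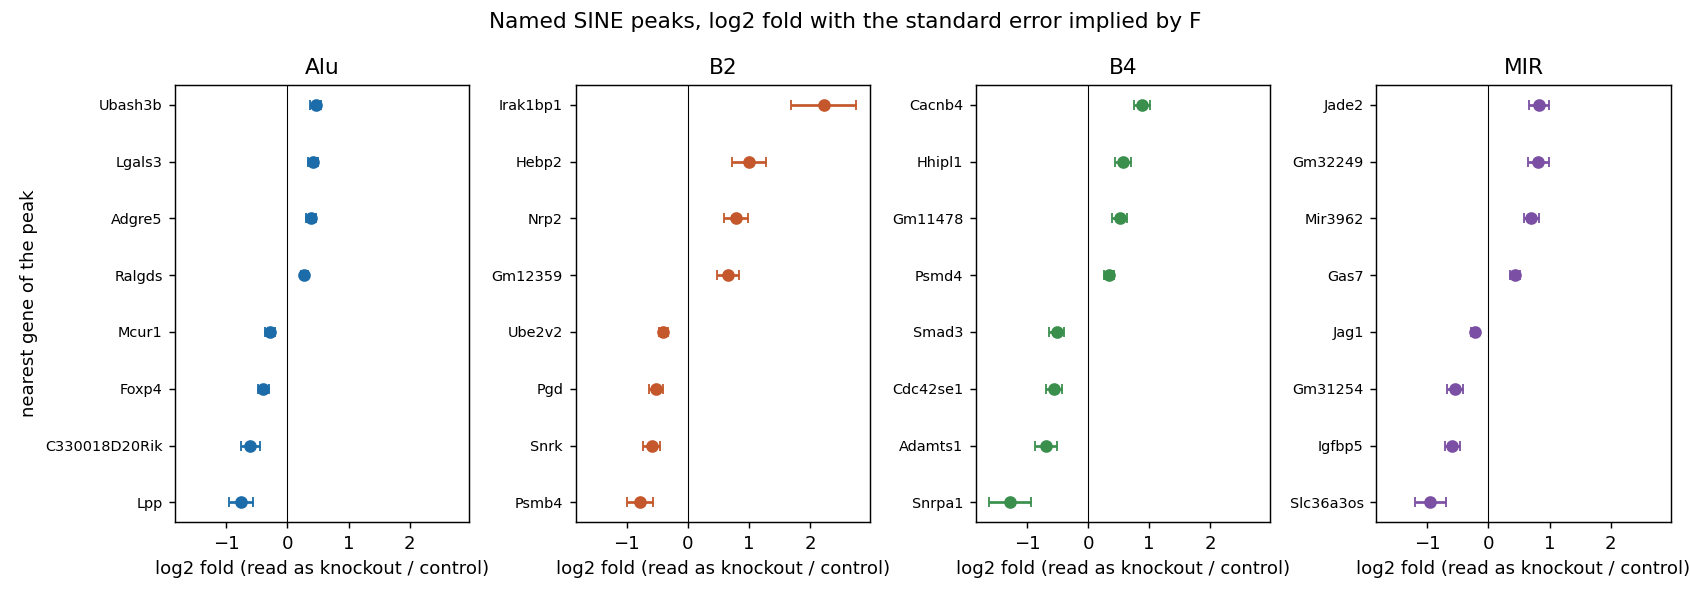
Log2 fold (read as knockout over control) with its standard error (from the F statistic) for the 4 gained and 4 lost called peaks of smallest FDR in each family, labelled by nearest gene. The peak nearest to Irak1bp1 has the widest error, 0.533, and the 4 Alu gains lie between 0.28 and 0.46.

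A microRNA gene was the nearest start site for 9 SINE peaks, and 3 of the 9 were called, a share near the 30.1% of all annotated peaks beyond 1000 bp. The 3 were gained and lay on MIR family elements, and 2 of them had the same nearest gene. The uncalled peaks had folds of both signs, with log2 values from -0.65 (Mir761) to 0.83 (Mir378a). Besides the Plxna2 peak, the called peaks were 2 MIRb peaks nearest to Mir29b-1, named here after their values were seen. One lay 18094 bp upstream (chromosome 6, 31057644 to 31058600) with a log2 fold of 0.26 (authors' deposited table, SE 0.0678, FDR 0.00880). The other lay 53421 bp upstream, in intron 3 of 3 of another gene, Lncpint (31093244 to 31093655), with 0.59 (authors' deposited table, SE 0.161, FDR 0.0123). With the coefficient of variation their adjusted p values were 0.162 and 0.0520. The 5 other annotated peaks assigned to Mir29b-1 were positive and 3 of them were gained. Products of the miR-29 family target messages of collagens and other matrix proteins. The mature sequences of both microRNA genes (RefSeq, GRCm38.p6), shown because these genes were the nearest to the gained peaks, have their seeds (bases 2 to 8) in capitals, and no seed is shared.
mmu-miR-29b-3p: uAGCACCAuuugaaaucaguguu
mmu-miR-29b-1-5p: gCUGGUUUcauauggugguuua
mmu-miR-3962: aGGUAGUAguuuguacauuu

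Other annotated peaks of the same genes mostly had the sign of the called SINE peak. The 92 gained SINE peaks had 91 nearest genes, and 63 of these genes had other annotated peaks, 159 in all. Of these, 125 (78.6%) had a positive fold, with 59 gained and 9 lost. The 40 lost SINE peaks had 40 nearest genes, and 31 of these had 70 other annotated peaks, of which 27 (38.6%) were positive, with 4 gained and 18 lost. Among the genes of the 32 peaks named above by FDR, 24 had other annotated peaks, which all had the sign of the named peak at 14 genes, had both signs at 6 and all had the opposite sign at 4 (Lpp, Mcur1, Irak1bp1 and Slc36a3os). Over all annotated peaks 56.7% had a positive fold, and 17.6% were gained and 13.1% were lost. There were 10 genes with more than 1 SINE peak, and in 4 of them all SINE peaks had the same sign. At Colq, a gene for the collagen tail of acetylcholinesterase, 3 SINE peaks (RSINE1, B3 and ID_B1) had log2 folds of 0.52, 0.41 and 0.30 in the authors' deposited table, none of them called. At Ldlrad3, a gained MIR peak (0.68, FDR 0.0283) and an uncalled B2_Mm2 peak (-0.45, FDR 0.154) lay in the same intron in the authors' deposited table.

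Of the 9 lists considered for this tissue, which covered 163 genes, 2 had a SINE peak. SINE peaks beyond 1000 bp made up 2.80% of all annotated peaks. At that share each list, taken alone, is too small for a count of 0 or 1 to be read as a shortage. Whether the 2 SINE peaks over all lists together fall short of that share was not tested. The extracellular matrix list had 1 SINE peak, at Adamts1, and the BMP and TGF-beta list had 1, at Smad3, and both were lost. The leukocyte and macrophage, osteoclast, osteoblast differentiation, periosteal and skeletal progenitor, WNT and glucocorticoid response lists had 0 SINE peaks among 29, 43, 23, 35, 55 and 20 annotated peaks. Over all annotated peaks 30.6% were called, 17.6% as gained and 13.1% as lost. Of the listed genes' annotated peaks, gained and lost numbered 14 and 3 for osteoclast, 4 and 3 for osteoblast differentiation, 4 and 13 for WNT, and 7 and 0 for glucocorticoid response genes. For the extracellular matrix list they were 4 and 16 of 47, and for the BMP and TGF-beta list 6 and 6 of 32. Of 15 genes of SINE silencing and transcription, among them DNA methyltransferase and RNA polymerase III factor genes, 2 had annotated peaks, 2 of which were gained and 1 lost of 4, and none was a SINE peak.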

How the data were processed

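ATAC-seq of 2 knockout and 2 control libraries was analysed from 2 tables. Per the submitters' processing notes, the build was mm39 and the tools were Bowtie2 (version 2.5.4), Trim Galore (version 0.6.10), SAMtools (version 1.21), GATK (version 4.5.5.0), DiffBind (version 3.16.0), deepTools (version 3.5.5) and HOMER, with no role or order stated. Not given in the sources used here are the peak caller, the library normalization and how reads matching several copies of a repeat were placed. Per the file headers, the authors deposited for each peak a log2 fold change, a mean log2 CPM, an edgeR F score, a p-value and an FDR, all used as deposited. Positions are printed as deposited, and the deposited width equals end minus start plus 2. Depth per library is unknown, and no column of an unassigned library was present. The files hold no counts per library, so no count model was fitted and the authors' edgeR values were used.

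Computed here were the SE (size of the log2 fold divided by the root of F), exact Clopper-Pearson intervals, distances between peaks, and host genes of introns, matched by transcript for 226 of 226 intronic peaks through RefSeq GRCm38.p6, used for names only. For alternatives, p came from the squared fold over its squared SE as a chi-square, adjusted over all peaks. The trend of fold with signal was a running median over 2000 peaks. The members, the gene lists and the rules for names were chosen with earlier results of these data known. Named peaks were, per family, the 4 gained and 4 lost called peaks of smallest FDR (1 per gene), the 3 largest gains and losses above median signal, and called peaks nearest to listed genes. Tables were handled with pandas 2.3.3 under Python 3.11.15, intervals came from scipy 1.17.1, and figures from matplotlib 3.10.9.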

Additional observations from a re-analysis of the deposited data

How the results depend on the processing

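Of 48 recomputed values under 8 alternatives, 30 stayed within 1.5 times the count or within the interval of the share. Gained and lost SINE peaks numbered 36 and 12 at an FDR under 0.01, 8 and 3 among peaks that also changed by 1 or more on the log2 scale, 30 and 15 with an assumed coefficient of variation of 0.05, 54 and 26 beyond 10000 bp, and 41 and 15 at widths up to 500 bp, against 92 and 40. All of these settings but the coefficient of variation keep a subset of the peaks by construction, and the coefficient of variation widens every SE. Gained peaks outnumbered lost ones in each of the 8 alternatives. The gained share left its interval for B2 (40% of 5 called peaks) and MIR (85% of 20) at the stricter FDR. It did so for B2 (42.9% of 7) and B4 (55.6% of 9) with the coefficient of variation. With that minimum change of 1 it was 100% for Alu (1 peak) and B2 (4 peaks) and 50% for B4 (4 peaks) and MIR (2 peaks). The cause was not tested. Only 45 of the 132 calls were kept with the coefficient of variation of 0.05. No paired analysis was possible because the tables hold no values per library, and for the same reason leaving out each library was not run.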
